A study of Arabidopsis thaliana with 6 samples.

Results

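Ferritins, nicotianamine synthases and the metal-nicotianamine transporters YSL1 and YSL3 store iron in the leaf and move it out again, and their transcripts were compared between wild-type (WT) and rse1-1 leaves. The members were chosen by locus: FER1 to FER4, NAS1 to NAS4, YSL1 and YSL3, which are 10 of the 33602 genes in the count table. WT was the Landsberg accession Ler, and rse1-1 is a mutant from an EMS screen of Ler in which a C-to-T change puts a premature stop codon into RSE1 (AT5G22070), a glycosyltransferase-like gene. Both genotypes therefore share the Ler background and were grown in soil at 22 °C with 16 h light and 8 h dark. Leaves 3 and 4 were taken at 16 days after sowing (DAS), when neither genotype showed visible yellowing, and polyadenylated RNA was sequenced in 3 biological replicates per genotype. A single mutant allele was sequenced, so a second EMS change carried by this line and the RSE1 lesion cannot be told apart. Of the 10 members, 8 had a mean of at least 10 counts over the 6 libraries and are called measured. NAS2 and NAS4 had no count in any library.

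Iron is needed in the chloroplast for photosynthetic electron transport and for iron-sulfur clusters, but free iron drives the formation of reactive oxygen species. Ferritin is a hollow protein shell that holds iron in a mineral form, and in plants it sits mainly in plastids. Transcripts of ferritin genes are known to rise when iron is in excess. Nicotianamine, made by nicotianamine synthase from S-adenosylmethionine, is a small chelator that keeps iron, zinc and copper soluble, and YSL proteins carry the metal-nicotianamine complexes across membranes. In leaves YSL1 and YSL3 are known for passing metals from veins and ageing leaves to younger tissue and seeds.

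NAS1 and FER1 were lower in rse1-1, YSL3 was higher, FER4 was slightly lower, and the other 4 measured members did not pass the test. Levels are CPM (counts scaled to library size, here after TMM scaling). Fold changes were tested over 16294 genes by the quasi-likelihood test of edgeR, and p-values were adjusted by Benjamini-Hochberg with a threshold of 0.05. The 4 members that passed are 50% of the 8 measured, whereas 77.0% of all tested genes passed, so a call by itself sets no member apart. A call with an absolute log2 fold change of at least 1 was made for 3 members (FER1, NAS1 and YSL3) and for 31.8% of tested genes, and 2 members (NAS1 and YSL3) and 23.6% of tested genes passed when tested against a change of that size. Of all tested genes 38.3% were lower and 38.8% were higher in rse1-1, and the median log2 fold change was −0.01, beside −0.20 over the 8 members. In the same 4 members the 3 libraries of one genotype did not overlap those of the other, which held for 79.5% of tested genes. The plot of levels by library shows the 8 measured members.

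**Figure D1:**
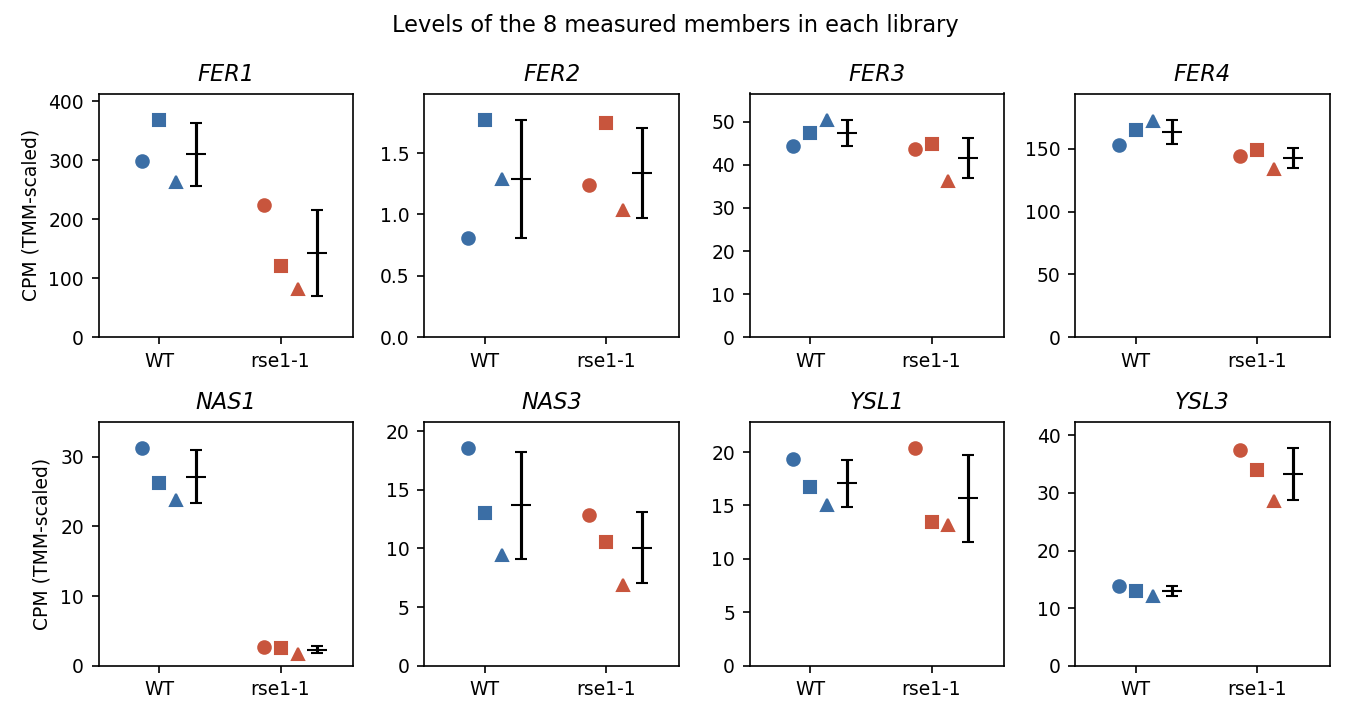
CPM (TMM-scaled) of each measured member on the vertical axis for WT (blue) and rse1-1 (red); circles, squares and triangles are replicates 1, 2 and 3, and the black bar is the mean with its SD (n = 3). NAS1 and YSL3 separated the genotypes by far more than the replicates differed, while FER1 in rse1-1 ran from 82.0 to 224 CPM.

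Each library held 9960144 to 15244500 counts on genes, and 3 counts, the most that a count of 0 allows at 95% confidence, came to between 0.195 and 0.304 CPM (counting error only). RSE1 itself was at 56.3 ± 1.71 CPM in WT and 20.4 ± 1.31 CPM in rse1-1 (SD, n = 3; log2 fold change −1.47, adjusted p = 5.33e-10). A feature of the table bears on 6 members and on RSE1, which is likewise more than 5 Mb from the start of chromosome 5. Ribosomal protein genes are used by nearly every cell, and within 2 Mb of FER1, NAS1, NAS3 and FER2, which lie in the first 5 Mb of their chromosomes, between 84.6% and 100% of them had a mean of at least 10 counts. Around FER3, FER4, YSL1, YSL3, NAS2 and NAS4, which lie further along, this held for 27.3% to 40% of them. Of the 4 members near a chromosome start, 2 passed the test (FER1 and NAS1), beside 79.7% of the tested genes there. Whether the counts listed for these 6 loci are their own could not be told from the table, nor could it for RSE1, and the values of the members' neighbours stand beside them below.

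**Figure D2:**
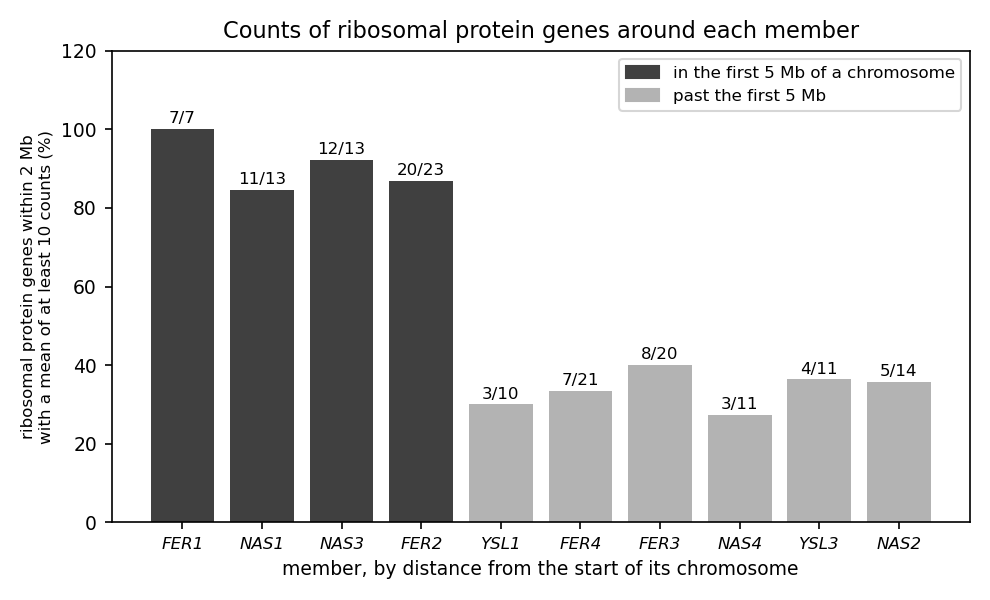
Bars give the percentage of ribosomal protein genes within 2 Mb of each member that had a mean of at least 10 counts, with the numbers of genes above them; members are ordered by distance from the start of their chromosome. The 4 members in the first 5 Mb (dark) stand at 84.6% to 100% and the 6 others (light) at 27.3% to 40%.

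Among the ferritins, FER1 fell 2.18-fold with a wide spread in rse1-1, FER4 fell slightly, and FER3 and FER2 did not pass the test. All 4 genes hold a G-box, the hexamer CACGTG bound by many plant bHLH and bZIP factors, in the 250 bases before the start codon, which 5.28% of 26707 protein-coding genes do (1409 genes). None of the NAS genes, YSL1 or YSL3 did. The sites are shown because all 4 ferritin genes hold one, and shared letters beyond the motifs named in this report were not searched for. They were read from the TAIR10.1 reference of Col-0 (RefSeq), not from Ler, and capitals mark the motif.
FER1 (chr5:229720-229749, minus strand, in the annotated exon upstream of the start codon): atatccaccctcCACGTGgatctcaatcca
FER2 (chr3:3463496-3463525, plus strand, in the annotated exon upstream of the start codon): ttctcctctttcCACGTGtccaacaaacag
FER3 (chr3:20816094-20816123, minus strand, before the annotated transcript start): atcgtatccatcCACGTGtcaacaatccac
FER4 (chr2:16833346-16833375, minus strand, before the annotated transcript start): atctcgtacgtaCACGTGtctctcatccgc
The first base of the hexamer lay 143 bases before the start codon in FER1 and in FER2, 127 bases before it in FER3 and 149 bases before it in FER4. The hexamer reads the same on both strands. A match is a description of these letters and not evidence that a factor binds there.

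FER1 (AT5G01600, TAIR10.1 chr5:227953-230051, minus strand), the ferritin known to be the main form in leaves, was at 299, 369 and 264 CPM in WT replicates 1 to 3 and at 224, 121 and 82.0 CPM in rse1-1 replicates 1 to 3. Every rse1-1 library was below every WT library, but rse1-1 replicate 1 lay closer to the lowest WT library than to rse1-1 replicate 3. The means were 310 ± 53.4 CPM and 142 ± 73.4 CPM (SD, n = 3), a 2.18-fold lower level in rse1-1 (log2 fold change −1.12, SE 0.246, adjusted p = 7.70e-04). The 3 rse1-1 libraries spanned a 2.73-fold range, wider than the difference between the genotype means, and the 3 WT libraries spanned a 1.40-fold range. Leaving out 1 library at a time gave log2 fold changes from −1.60 (without rse1-1 replicate 1) to −0.83 (without rse1-1 replicate 3), and tested against a change of 1 on the log2 scale FER1 did not pass (adjusted p = 0.458; range over all alternatives 4.41e-17 to 0.458). In these whole-leaf samples, fewer cells of a type and less RNA per cell cannot be told apart.

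FER1 is also the ferritin whose upstream region is best known. Its iron-dependent regulatory sequence (IDRS), through which the gene is known to be held down when iron is short, and an element of the P1BS type (GNATATNC, both strands), to which the phosphate starvation regulator PHR1 is known to bind, are shown because PHR1 is among the regulators described further on.
FER1 IDRS (chr5:229763-229792, minus strand): ggatgtagCACGAGGCCGCCACacgcccct
FER1 P1BS (chr5:229803-229832, minus strand): taacgtggatcGAATATCCtcacgttcaca
The capitals of the IDRS line are 14 bases read from FER1 itself. So long a string seldom recurs by its length alone, and no other of the 26707 genes held it in its 250-base window. P1BS letters were found in 4.17% of these genes and, among the members, in FER1 only. Both sites lie in the annotated exon, 190 and 227 bases before the start codon.

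FER4 (AT2G40300, chr2:16831109-16833294, minus strand), a ferritin of leaves that is also known from mitochondria, was at 153, 165 and 172 CPM in WT and 144, 149 and 134 CPM in rse1-1. The rse1-1 libraries lay just under the WT libraries without overlap. The means were 164 ± 9.59 CPM and 143 ± 7.78 CPM (SD, n = 3; log2 fold change −0.20, SE 0.0723, adjusted p = 0.0203). The call was lost with DESeq2 (adjusted p = 0.0563) and without WT replicate 2, WT replicate 3 or rse1-1 replicate 3, with adjusted p from 1.82e-04 to 1 over all alternatives. FER4 overlaps AT2G40290 on the same strand by 118 exonic bases, and that neighbour was at 69.0 CPM in WT and 65.0 CPM in rse1-1.

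FER3 (AT3G56090, chr3:20813904-20816035, minus strand), the other leaf ferritin, was at 44.3, 47.5 and 50.5 CPM in WT and 43.6, 44.7 and 36.3 CPM in rse1-1. The genotypes overlapped by a small margin, and the log2 fold change of −0.19 (SE 0.0918, adjusted p = 0.0674) missed the threshold. It passed with upper quartile scaling (log2 fold change −0.38, adjusted p = 0.00139), a scaling that moved the median of all genes to −0.20, and without WT replicate 1 or rse1-1 replicate 2 (adjusted p 0.0353 and 0.0492, in a range of 0.00139 to 1 over all alternatives). Its same-strand neighbour MRLK, 830 bases upstream, fell by 2.03 on the log2 scale.

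FER2 (AT3G11050, chr3:3463477-3465506, plus strand), the ferritin known from seeds, had 8, 18 and 15 counts in WT and 19, 18 and 13 counts in rse1-1. At 1.29 ± 0.480 CPM and 1.34 ± 0.364 CPM (SD, n = 3) it was near the lower end of what these libraries measure, and a log2 fold change of 0.02 with an SE of 0.327 leaves room for a change in either direction (adjusted p = 0.962).

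Set against one another per kilobase of exon, the ferritin transcripts of rse1-1 had a smaller mean share of FER1 and a larger mean share of FER4. FER1 made up 56.1 ± 4.72% of the summed ferritin level in WT and 38.8 ± 11.1% in rse1-1 (SD, n = 3). In single libraries its share was 57.1%, 60.3% and 51.0% in WT and 51.2%, 35.4% and 29.7% in rse1-1, so the ranges touched: rse1-1 replicate 1 lay just above WT replicate 3. FER4 went from 33.9 ± 3.61% to 47.3 ± 9.06%, FER3 from 9.64 ± 1.13% to 13.4 ± 2.03%, and FER2 stayed under 1%, at 0.287 ± 0.0857% and 0.482 ± 0.141%. The FER4 shares touched too, at 37.8% in WT replicate 3 and 37.4% in rse1-1 replicate 1, and its own level was slightly lower in rse1-1. These shares are a description with no test, and because they sum to the whole, a lower share of FER1 raises the others.

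NAS1 was the member with the largest difference, and it lies in the first 5 Mb of its chromosome. NAS1 (AT5G04950, chr5:1457641-1459039, minus strand), one of the enzymes that make nicotianamine, had 308, 267 and 276 counts in WT and 41, 26 and 21 counts in rse1-1. In CPM these were 31.2, 26.3 and 23.8 against 2.67, 2.52 and 1.67, with a wide gap between the genotypes. The means of 27.1 ± 3.80 CPM and 2.29 ± 0.536 CPM (SD, n = 3) put rse1-1 at 8.44% of WT, 11.9-fold lower (log2 fold change −3.55, SE 0.171, adjusted p = 8.98e-11). NAS1 kept its direction and its call in all 16 alternatives, with adjusted p from 1.14e-57 to 3.48e-09, and leaving out 1 library gave −3.69 to −3.36. The next gene on the same strand, SUVH1, a histone methyltransferase gene 499 bases away, differed by −0.56 on the log2 scale.

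NAS3 (AT1G09240, chr1:2984829-2986231, plus strand), the other measured synthase, was at 18.6, 13.0 and 9.48 CPM in WT and 12.8, 10.6 and 6.86 CPM in rse1-1. The genotypes overlapped, and the WT libraries alone spanned a 1.96-fold range. The log2 fold change of −0.42 (SE 0.231, adjusted p = 0.113) missed the threshold. It passed with upper quartile scaling (adjusted p = 0.0244), with no filter on low counts (adjusted p = 0.0115), and without WT replicate 3 (log2 fold change −0.63, adjusted p = 0.0167) or rse1-1 replicate 1 (log2 fold change −0.64, adjusted p = 0.0335), and over all alternatives its adjusted p ran from 0.00398 to 1. In WT, NAS1 stood at 19.4 ± 2.71 CPM per kilobase and NAS3 at 9.75 ± 3.26. In rse1-1 the order of the 2 synthases was the other way round, at 1.63 ± 0.383 and 7.18 ± 2.15 CPM per kilobase (SD, n = 3).

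NAS2 (AT5G56080) and NAS4 (AT1G56430) were listed at 0 in all 6 libraries. NAS2, known mainly from roots, lies on chromosome 5 between AT5G56075 and COX15, and both of these were also at 0, although COX15 encodes an assembly factor of the mitochondrial respiratory chain that most cells use. NAS4, on chromosome 1, is known from leaves as well as roots. Of its neighbours, AT1G56423 was at 0 in all 6 libraries, whereas TPR5, 237 bases away on the other strand, rose from 7.09 to 12.4 CPM. Both synthase loci lie past the first 5 Mb. Of the ribosomal protein genes around them, 35.7% (NAS2) and 27.3% (NAS4) had a mean of at least 10 counts. The absence of counts at these 2 loci is therefore not read as absence of transcript. Every 75-base window of the exons of NAS1 to NAS4, as of all 10 members, occurred once in the TAIR10.1 nuclear genome, so reads of this length can be assigned to 1 member of the family on that reference.

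YSL3 was higher in rse1-1 and YSL1 did not pass the test. YSL3 (AT5G53550, chr5:21755251-21758950, plus strand) was at 13.8, 13.0 and 12.1 CPM in WT and 37.4, 34.0 and 28.5 CPM in rse1-1. Each rse1-1 library was above 2 times the level of any WT library. The means were 13.0 ± 0.823 CPM and 33.3 ± 4.48 CPM (SD, n = 3), 2.57-fold higher in rse1-1 (log2 fold change 1.36, SE 0.116, adjusted p = 4.86e-08), and the call held in all 15 alternatives that could be run (adjusted p from 9.78e-23 to 0.00396). The next gene on the same strand, CB5-E, a cytochrome b5 gene that starts 378 bases after YSL3, was also higher (54.8 and 176 CPM, log2 fold change 1.68, adjusted p = 9.72e-11). So was AT5G53540, on the other side of YSL3, 3912 bases away on the minus strand (81.8 and 132 CPM, log2 fold change 0.69, adjusted p = 8.84e-07). YSL3 is 1 of the 6 members past the first 5 Mb, where 36.4% of the ribosomal protein genes around it had a mean of at least 10 counts.

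YSL1 (AT4G24120, chr4:12524186-12527347, plus strand) was at 19.4, 16.7 and 15.1 CPM in WT and 20.4, 13.5 and 13.2 CPM in rse1-1. Replicate 1 of rse1-1 was the highest of the 6 libraries and replicates 2 and 3 were the lowest. The log2 fold change was −0.10 (SE 0.160, adjusted p = 0.577), and without rse1-1 replicate 1 it was −0.34 (adjusted p = 0.0345, in a range of 0.0345 to 1 over all alternatives). AT4G24130, which follows 327 bases after YSL1 on the same strand, had a log2 fold change of 0.16.

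Compared per kilobase of exon, WT leaves held most FER1 transcript (218 ± 37.6 CPM per kilobase), then FER4 (131 ± 7.66), FER3 (37.1 ± 2.41), NAS1 (19.4 ± 2.71), NAS3 (9.75 ± 3.26), YSL1 (6.23 ± 0.790), YSL3 (4.27 ± 0.271) and FER2 (1.13 ± 0.419) (SD, n = 3). In that order only NAS3 and YSL1 overlapped between neighbours. In rse1-1 the order was FER4 (114 ± 6.21), FER1 (100 ± 51.6), FER3 (32.5 ± 3.60), YSL3 (11.0 ± 1.47), NAS3 (7.18 ± 2.15), YSL1 (5.71 ± 1.49), NAS1 (1.63 ± 0.383) and FER2 (1.17 ± 0.317). There FER4 and FER1, NAS3 and YSL1, and NAS1 and FER2 overlapped in their libraries. NAS1 was next to FER3 in WT and next to the seed ferritin FER2 in rse1-1, and YSL3 moved from below YSL1 to above it.

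The wider iron network was read from lists of known genes, beside the background of 77.0% of tested genes passing. The plot of fold changes gives each tested gene. Regulators of the iron response had 10 of 22 genes tested, and 6 were higher and 2 lower in rse1-1 (80%, median log2 fold change 0.45). bHLH39 and bHLH101 are transcription factors of the Ib bHLH group, which are known to rise when iron is short. bHLH101, in the first 5 Mb of chromosome 5, had 2, 1 and 3 counts in WT and 78, 66 and 165 counts in rse1-1, a ratio of summed scaled counts of 42.6 (95% exact counting interval 19.3 to 117; adjusted p = 4.55e-07). bHLH39 had 15, 3 and 12 counts in WT and 150, 183 and 299 counts in rse1-1, 18.0-fold higher in mean CPM (adjusted p = 2.44e-07). Its relatives bHLH38 and bHLH100 were listed at 0 throughout, which is not read as absence of transcript, as all 3 lie past the first 5 Mb. On the minus strand of chromosome 3, bHLH38 (21084035-21085245) lies close to bHLH39 (21086390-21087710). Whether the counts listed for bHLH39 are its own could not be told.

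BTS and BTSL2 encode ubiquitin ligases with an iron-binding domain that are known to restrain the iron deficiency response. BTS was at 118, 107 and 124 CPM in WT and 275, 363 and 437 CPM in rse1-1 (log2 fold change 1.62, adjusted p = 2.66e-08). BTSL2 rose from 11.8 ± 0.216 CPM to 99.7 ± 1.53 CPM (SD, n = 3; log2 fold change 3.07, adjusted p = 1.59e-13). TIC, a clock-linked protein known to hold FER1 down, rose by 0.59 on the log2 scale, and PHR1, named here after its values were seen because of the P1BS site of FER1, rose by 0.31 (adjusted p = 0.00373). Apart from bHLH101, these genes lie past the first 5 Mb.

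**Figure D3:**
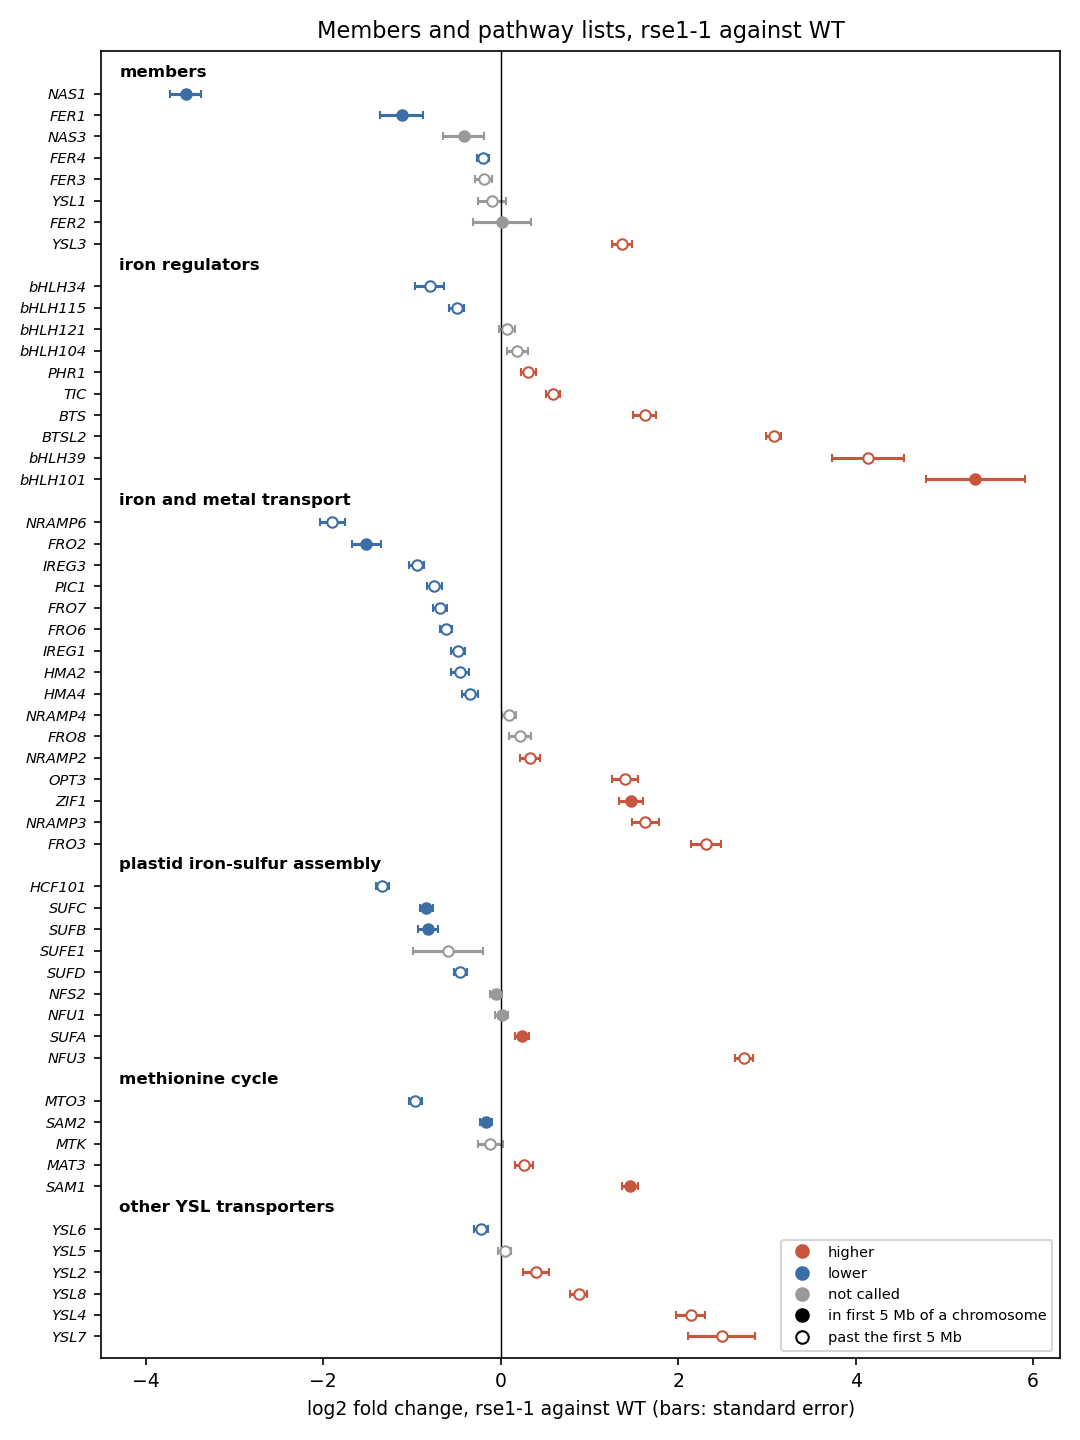
Log2 fold change of rse1-1 against WT on the horizontal axis, with its standard error, for the 8 measured members and the tested genes of 5 lists; red is higher, blue lower and grey not past the threshold, and filled points are genes that lie within 5 Mb of a chromosome's start. NAS1 lies furthest to the left at −3.55 and bHLH101 furthest to the right, a gene with 1 to 3 counts in each WT library.

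Iron and other metal transport genes had 16 of 29 members tested, with 5 higher and 9 lower (87.5%, median −0.40). FRO3, a ferric reductase of mitochondria, rose from 21.1 ± 1.11 CPM to 105 ± 32.0 CPM (SD, n = 3; log2 fold change 2.31, adjusted p = 1.05e-08). ZIF1, a vacuolar transporter that is known to move nicotianamine into the vacuole, lies in the first 5 Mb and was at 51.1, 46.0 and 50.5 CPM in WT and 102, 143 and 165 CPM in rse1-1 (log2 fold change 1.47, adjusted p = 1.06e-07). NRAMP3, which releases iron from the vacuole, rose by 1.63 on the log2 scale, whereas NRAMP6 fell by 1.90 and IREG3, an organellar metal exporter, fell by 0.95. OPT3, which loads iron into the phloem and was named after its values were seen, rose from 121 ± 3.06 CPM to 321 ± 92.3 CPM (SD, n = 3; log2 fold change 1.40, adjusted p = 5.81e-07). FRO2, also named after its values were seen, fell from 8.56 ± 0.724 CPM to 3.02 ± 0.323 CPM (SD, n = 3; log2 fold change −1.51, adjusted p = 7.50e-07). FRO6 and FRO7, named likewise, fell by 0.62 and 0.68. Of the 2 transport genes tested in the first 5 Mb, ZIF1 was higher and FRO2 lower. The other genes named here lie past it.

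Assembly of iron-sulfur clusters in plastids is a main use of leaf iron, and of 9 tested genes 2 were higher and 4 lower (66.7%, median −0.45). SUFB, SUFC and SUFD, which form the scaffold complex, were lower together, by −0.82, −0.84 and −0.45 on the log2 scale, and the first 2 lie in the first 5 Mb. SUFB was at 494, 476 and 456 CPM in WT and 326, 269 and 212 CPM in rse1-1 (adjusted p = 1.38e-05). HCF101, which passes clusters to photosystem I, fell by 1.34, and NFU3, a carrier of clusters in plastids, rose by 2.74 (25.1 ± 4.02 CPM and 168 ± 13.9 CPM; SD, n = 3). SUFD, HCF101 and NFU3 lie past the first 5 Mb.

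S-adenosylmethionine, the substrate of nicotianamine synthase, is made by 4 synthetase genes, all of which passed the test, SAM2 narrowly, in different directions. SAM1, in the first 5 Mb, rose from 402 ± 24.7 CPM to 1100 ± 110 CPM (SD, n = 3; log2 fold change 1.45, adjusted p = 1.18e-09), and MAT3 rose by 0.26. MTO3 fell by 0.96, from 765 ± 28.5 CPM to 393 ± 14.9 CPM, and SAM2 fell by 0.16 (adjusted p = 0.0376). MTK, the kinase that recycles the methylthioribose left over from nicotianamine synthesis, had a log2 fold change of −0.12 (adjusted p = 0.469). MAT3, MTO3 and MTK lie past the first 5 Mb, and SAM2 lies within it. Over the list of methionine cycle genes, 5 of 7 were tested, 2 were higher and 2 lower (80%, median −0.12), and the count of calls was 2 without WT replicate 3 and 2 without rse1-1 replicate 3. The count was 3, with 1 gene lower, under DESeq2, RLE scaling, library size only, no filter and at least 10 counts in every library.

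Of the 6 other YSL transporters, 4 were higher and 1 lower (83.3%, median 0.64), and all 6 lie past the first 5 Mb. YSL4 rose from 4.34 ± 0.334 CPM to 19.0 ± 3.80 CPM (SD, n = 3; log2 fold change 2.14, adjusted p = 2.03e-08). YSL7 rose by 2.49 from only 2, 3 and 4 counts, YSL8 by 0.88 and YSL2 by 0.39, and YSL6, which is known from chloroplasts, fell by 0.23. The count of calls in this list was 3 with DESeq2, 3 without WT replicate 1 and 3 without rse1-1 replicate 1.

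The rse1-1 libraries differed among themselves in FER1, and several iron genes differed in the reverse order. FER1 was highest in replicate 1, lower in replicate 2 and lowest in replicate 3 of rse1-1. bHLH39, bHLH101, BTS, FRO3, ZIF1 and OPT3 were lowest in replicate 1 and highest in replicate 3. The reverse order of FER1 was found in 6 of the 10 tested regulators (60%) and in 5 of the 16 tested transport genes (31.2%), against 15.8% of all tested genes, and in none of the 9 iron-sulfur genes. Of these 9, only SUFB was in the order of FER1 (11.1%, against 15.8% of all tested genes). BTSL2, NFU3 and NRAMP3, all higher in rse1-1, were in neither order. These regulators and transport genes were not all higher in rse1-1. PHR1 was, but bHLH115, IREG1 and PIC1 were lower and bHLH121 was not called. IREG1 was at 36.7, 36.7 and 40.3 CPM in rse1-1 replicates 1 to 3, so replicates 1 and 2 were nearly equal. Among the 5 tested methionine cycle genes, 2 were in the reverse order and 2 in the order of FER1. Of the 7 other measured members, NAS1, NAS3, YSL1 and YSL3 were in the order of FER1 (57.1%, against 15.8% of all tested genes), and these 4 had replicate 1 highest and replicate 3 lowest in WT too, unlike FER1. This was looked at after the values were seen, it rests on 3 libraries, and it is given as a description with no test. The rse1-1 libraries spanned a 1.59-fold range in NAS1 and a 2.73-fold range in FER1.

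**Figure D4:**
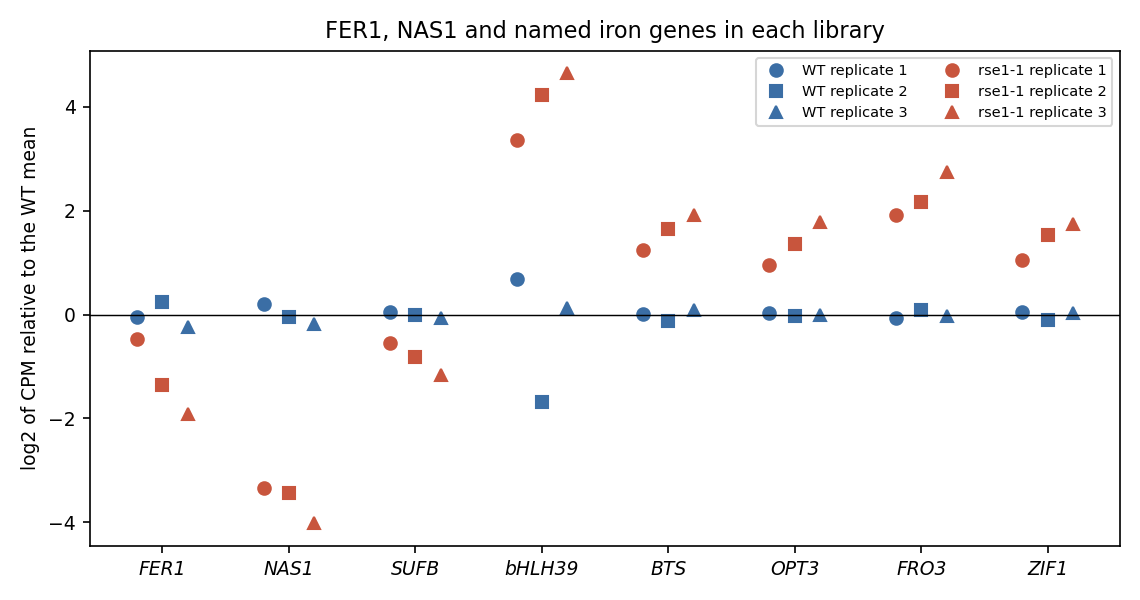
Log2 of CPM relative to the WT mean on the vertical axis for 8 genes, in WT (blue) and rse1-1 (red), with circles, squares and triangles for replicates 1, 2 and 3. FER1 and SUFB in rse1-1 are lowest in replicate 3, while bHLH39, BTS, OPT3, FRO3 and ZIF1 are highest in replicate 3. The genes were picked after their values were seen, and not every gene in the reverse order of FER1 is shown. SUFB was 1 of 9 tested iron-sulfur genes (11.1%) in the order of FER1, against 15.8% of all tested genes. BTSL2, NFU3 and NRAMP3, in neither order, are not shown.

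The summed levels of the leaf cell type markers did not overlap between the genotypes, and neither did 79.5% of all tested genes taken singly. A difference in a marker sum therefore sets no cell type apart by itself. The summed level of the mesophyll markers was 2313 to 2437 CPM in WT and 1178 to 1440 CPM in rse1-1, with 2 of 4 genes measured and CAB1 and LHCB2.4 at 0, both past the first 5 Mb. The phloem companion cell markers, from tissue in which YSL1, YSL3 and OPT3 are known to act, summed to 1424 to 1586 CPM in WT and 1005 to 1058 CPM in rse1-1, with 2 of 3 measured and none at 0. Guard cell markers (3 of 3 measured, none at 0) were at 158 to 161 CPM and 184 to 194 CPM. Markers of epidermis and trichomes (1 of 4 measured, PDF1 and GL1 at 0) were at 131 to 151 CPM and 55.7 to 71.3 CPM. Root markers reached at most 0.862 CPM in WT and 1.89 CPM in rse1-1 with COBL9 at 0, and flower markers at most 0.195 CPM with AG at 0. PDF1, GL1, COBL9 and AG also lie past the first 5 Mb, and for no marker is a 0 read as absence of transcript. The part of these differences in the levels of FER1, NAS1 and YSL3 was not tested.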

How the data were processed

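The authors made stranded libraries with single reads of 75 bases, and after trimming mapped the reads to a Ler-0 genome rebuilt from Col-0 with its variants; they then removed PCR duplicates and counted uniquely mapped reads per gene. The deposited values are whole counts without normalization. The submitters' processing notes name Trimmomatic 0.32.3, TopHat2 2.0.9, Picard 1.119, HTSeq 0.6.1 and the TAIR10 genome; the strand setting and the annotation version are not given in the sources used here, so overlapping and antisense genes are read as uncertain. In 895 genes at least 1 library held over 2 counts per exonic base (FER1: 2.64), more than duplicate removal by position would leave.

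Groups came from the genotype label, and every column belonged to a sample (columns of no sample: 0). Entries naming no gene (47.0% to 48.7% per library) were left out of sizes and tests. Of 33602 genes, 32835 matched TAIR10.1 (RefSeq), from which coordinates and sequences were taken. Counts were tested with edgeR 4.0.16 (R 4.3.3; TMM, filterByExpr with a minimum count of 10, quasi-likelihood test of genotype, Benjamini-Hochberg); alternatives used DESeq2 1.42.0, limma 3.58.1, other scalings, filters and left-out libraries. On simulated counts with 200 changed genes, edgeR called 194 of them and 12 of the rest among 16234 genes. In the data 77.0% of tested genes were called, so the simulation does not show how calls behave where most genes differ. No pair of replicates differed by so little that 1 library could have been deposited more than once.

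The members and lists were chosen with earlier results of these data known. Named were all 10 members, up to 5 genes per list with the smallest adjusted p, and RSE1. PHR1, OPT3, FRO2, FRO6, FRO7, bHLH115, bHLH121, IREG1, PIC1 and neighbouring genes were added after their values were seen. List genes under a mean of 10 counts are given as numbers only, except bHLH38 and bHLH100.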

Additional observations from a re-analysis of the deposited data

How the results depend on the processing

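No called member reversed its direction; FER2 and YSL1, neither of them called, changed sign when single libraries were left out. Over the 8 members, 108 of 123 results of single alternatives kept their side of the threshold, 9 gained a call and 6 lost one. Fitting the genes of the first 5 Mb only, an alternative added after seeing the data, left fewer genes to test: 3302 calls among 4137 genes, 2 members (FER1 and NAS1), 1 regulator, 2 transport genes, 3 iron-sulfur genes and 2 methionine cycle genes. Against a log2 fold change of 1, 2 members passed (NAS1 and YSL3), and with DESeq2 3 of the other YSL transporters did. Leaving out 1 library at a time gave 11911 to 12546 calls over all genes, 3 to 6 over the members, 9 to 10 over the regulators, 13 to 15 over transport, 5 to 6 over iron-sulfur assembly, 2 to 4 over the methionine cycle and 3 to 5 over the other YSL transporters. Upper quartile scaling moved the median of all genes to −0.20, and changes under it are relative to that. Depth limits FER2, at 8 to 19 counts per library.

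The replicate numbers did not pair the libraries (correlations of same-numbered deviations 0.042, 0.080 and −0.083). With the replicate number as a block, 12546 genes and 5 members passed, NAS3 being added (log2 fold change −0.44, adjusted p = 0.00398), with 8 regulators, 14 transport genes, 6 iron-sulfur genes, 3 methionine cycle genes and 5 other YSL transporters.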
